A study of Xenopus laevis with 6 samples.

Results

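The genes described here are RNA-binding proteins that choose splice sites, and that have been tied to the making of circular RNAs, as they stood in the testis of the African clawed frog Xenopus laevis. Members were rows of the mRNA table whose symbol belongs to the QKI, hnRNP, SRSF, muscleblind, CELF, RBFOX, PTBP, ESRP, NOVA, KHDRBS, EWSR1, TAF15, TDP-43, ADAR, DHX9, ILF2, ELAVL, TRA2, U2AF, SF3B, SF1 or related families, or whose description names an hnRNP or a serine/arginine-rich splicing factor. The rule found 90 of 31598 mRNA rows, 78 by symbol and 12 by description only. It found no muscleblind row by symbol. The circular RNAs (rings) assigned to these genes numbered 288 of 68575, and 73 of the 90 members hosted at least 1 ring. The long non-coding RNA (lncRNA) table tied 4 of 3559 transcripts to a member.

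Splicing of a linear mRNA joins the end of an upstream exon to the start of a downstream exon. A ring forms when the end of a downstream exon is joined backwards to the start of the same or an upstream exon, and this back-splice junction is what identifies the ring in sequencing. Proteins that bind the introns on both sides of an exon, such as QKI, can bring its ends together and favour the ring. Base pairing between inverted repeats in those introns does the same. ADAR, which edits adenosine to inosine in paired RNA, and the helicase DHX9, which unwinds it, oppose rings of that kind in mammalian cells. SR and hnRNP proteins, which promote or block the use of exons, control a ring of the laccase2 gene in Drosophila.

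The atrazine group had been kept in 100 µg/L atrazine, a triazine herbicide, from postnatal day 13 for 180 days. The control group had no exposure. Both groups were sampled as testis at postnatal day 193 and held 3 libraries each. Total RNA was depleted of rRNA and sequenced with a kit that keeps strand. Whether the libraries of a group stem from different animals is not stated, and p-values therefore speak only of the variation among the libraries at hand. X. laevis carries paired chromosome sets, and the suffixes L and S mark the copies of a gene. The mRNA table rested on an estimated 7360633 to 15393407 reads per atrazine library and 13784688 to 17018688 per control library. The ring table held 37092 to 63622 back-splice junction reads per atrazine library and 61193 to 86265 per control library. All 9 rows of the testis marker list averaged at least 1 FPKM, and ddx4.L, a germ cell helicase, stood at 419, 363 and 325 FPKM in the atrazine libraries and at 424, 263 and 333 FPKM in the control libraries. The summed level of that list was 1571 to 1606 FPKM in atrazine and 2043 to 2440 FPKM in control. The row sp4-c carried this gap, with 290, 335 and 362 FPKM in atrazine and 713, 1207 and 856 FPKM in control. The other 8 rows summed to 1235 to 1280 FPKM in atrazine and 1232 to 1330 FPKM in control, and overlapped. Red blood cell markers, 6 rows with 3 at a mean of 1 FPKM or more and none at 0 throughout, summed to 136 to 215 FPKM in atrazine and 235 to 688 FPKM in control. Most of this was hbg1.L, with 120, 186 and 128 FPKM in atrazine and 244, 614 and 220 FPKM in control. The row hba1.S averaged 17.8 FPKM in atrazine and 39.8 FPKM in control, with overlap. For hba3.L the means were 1.36 FPKM in atrazine and 1.05 FPKM in control. The part of red blood cells in the results below was not tested.

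Control replicates 1 and 2 lay far apart in these genes. Control replicate 1 was the highest of the 3 controls in 66 of the 86 members that passed the filter (76.7%), against 43.5% of all rows tested. Control replicate 2 was the lowest control in 58 of 86 members (67.4%), against 44.5% of all rows. In the 182 tested rows of 5 lists of other splicing genes, described below, these shares were 58.8% and 59.3%, so the pattern was not confined to the members. The median deviation of members from their mean over 6 libraries was 0.056, 0.096 and -0.0010 on the log2(FPKM + 1) scale in atrazine replicates 1, 2 and 3, and 0.13, -0.20 and -0.071 in control replicates 1, 2 and 3. The controls thus spanned a wider range than the atrazine libraries, and control replicate 1 lay above every one of the atrazine medians. The standard deviation within the control group exceeded that within the atrazine group for 68 of 86 members (79.1%), against 59.9% of all rows. Its median over members was 0.12 in the atrazine group and 0.22 in the control group on this scale. In bulk tissue, fewer cells of a type and less RNA per cell cannot be told apart. Counts over all members are given without each of these controls, and counts of a family or list only without control replicate 1. The fold change of an mRNA row is given again without control replicate 1 where this turned its sign or moved it by over 1.5 times. Since control replicate 1 was the highest control in most members, leaving it out raises most fold changes. Such values are therefore no firmer than those from all 6 libraries.

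**Figure D1:**
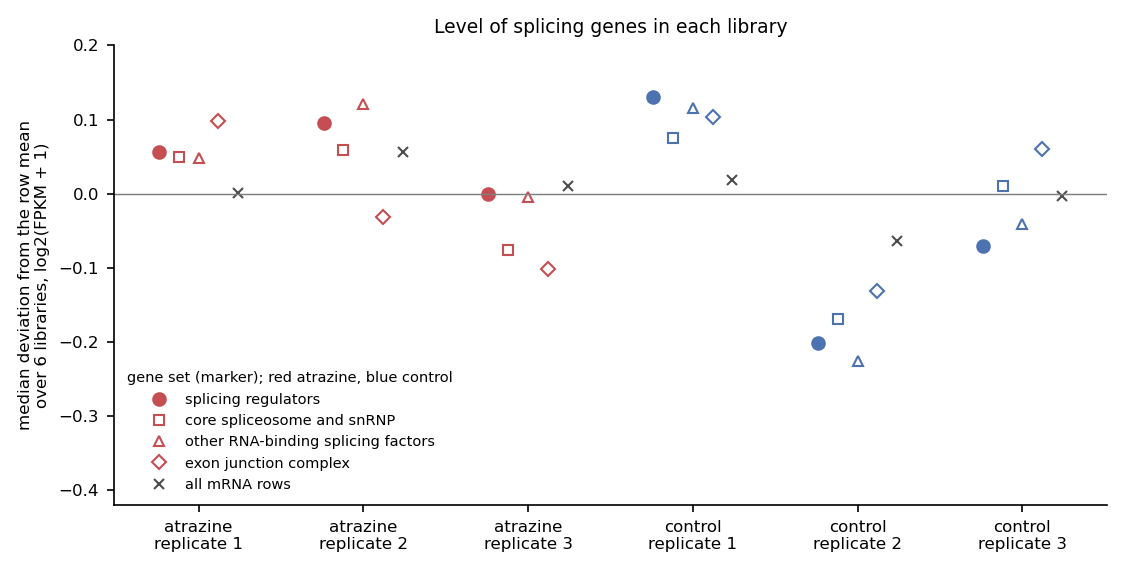
Median deviation of each gene set from its row means over the 6 libraries, on the log2(FPKM + 1) scale, for atrazine (red) and control (blue) libraries. Filled circles are the splicing regulators, which stood at 0.13 in control replicate 1 and at -0.20 in control replicate 2, and crosses are all mRNA rows tested.

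The main comparison set the mRNA levels of the splicing regulators in atrazine testes against those in control testes. FPKM is a read count scaled to the length of the transcript and the size of the library. Rows that reached 0.5 FPKM in 3 or more libraries were tested with limma on log2(FPKM + 1), where fold changes of low rows are understated. Of the 90 members 86 passed that filter, and celf2.S, celf3.L, celf4.L and LOC108704105, described as an hnRNP D-like protein, did not. No member passed an adjusted p of 0.05, which 0% of the 23824 rows tested passed, and the smallest adjusted p of a member was 0.693 (limma). The fitted value was above 0, which means higher with atrazine, for 67 of 86 members and below 0 for 19, while it was above 0 for 57.3% of all rows. The median log2 fold change was 0.11 for the members and 0.040 for all rows.

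At an unadjusted p under 0.05 stood 4 members, all with the higher level in atrazine (limma), against a background of 5.92% of all rows, 3.32% higher and 2.59% lower in atrazine. These were LOC397772, srsf7.L, srsf3.S and u2af2.S. The groups did not overlap in 10 members with the higher level in atrazine and in 1 with the lower level. Among all rows 11.3% did not overlap, 6.63% in the higher and 4.66% in the lower direction. The share of members at an unadjusted p under 0.05, 4.65%, was near its background. Without control replicate 1 the fitted value was above 0 for 72 of 86 members and for 58.1% of all rows, with medians of 0.21 and 0.057. An unadjusted p under 0.05 was then reached by 23 members (26.7%), 21 of them higher in atrazine, and by 19.1% of all rows (limma). No member passed the adjusted threshold in that fit either, with a smallest adjusted p of 0.0941, and 0.0212% of all rows did (limma). Without control replicate 2 the count above 0 was 55 of 86, against 53.3% of all rows, with medians of 0.043 and 0.014. No member had an unadjusted p under 0.05 in that fit, against 3.33% of all rows (limma).

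**Figure D2:**
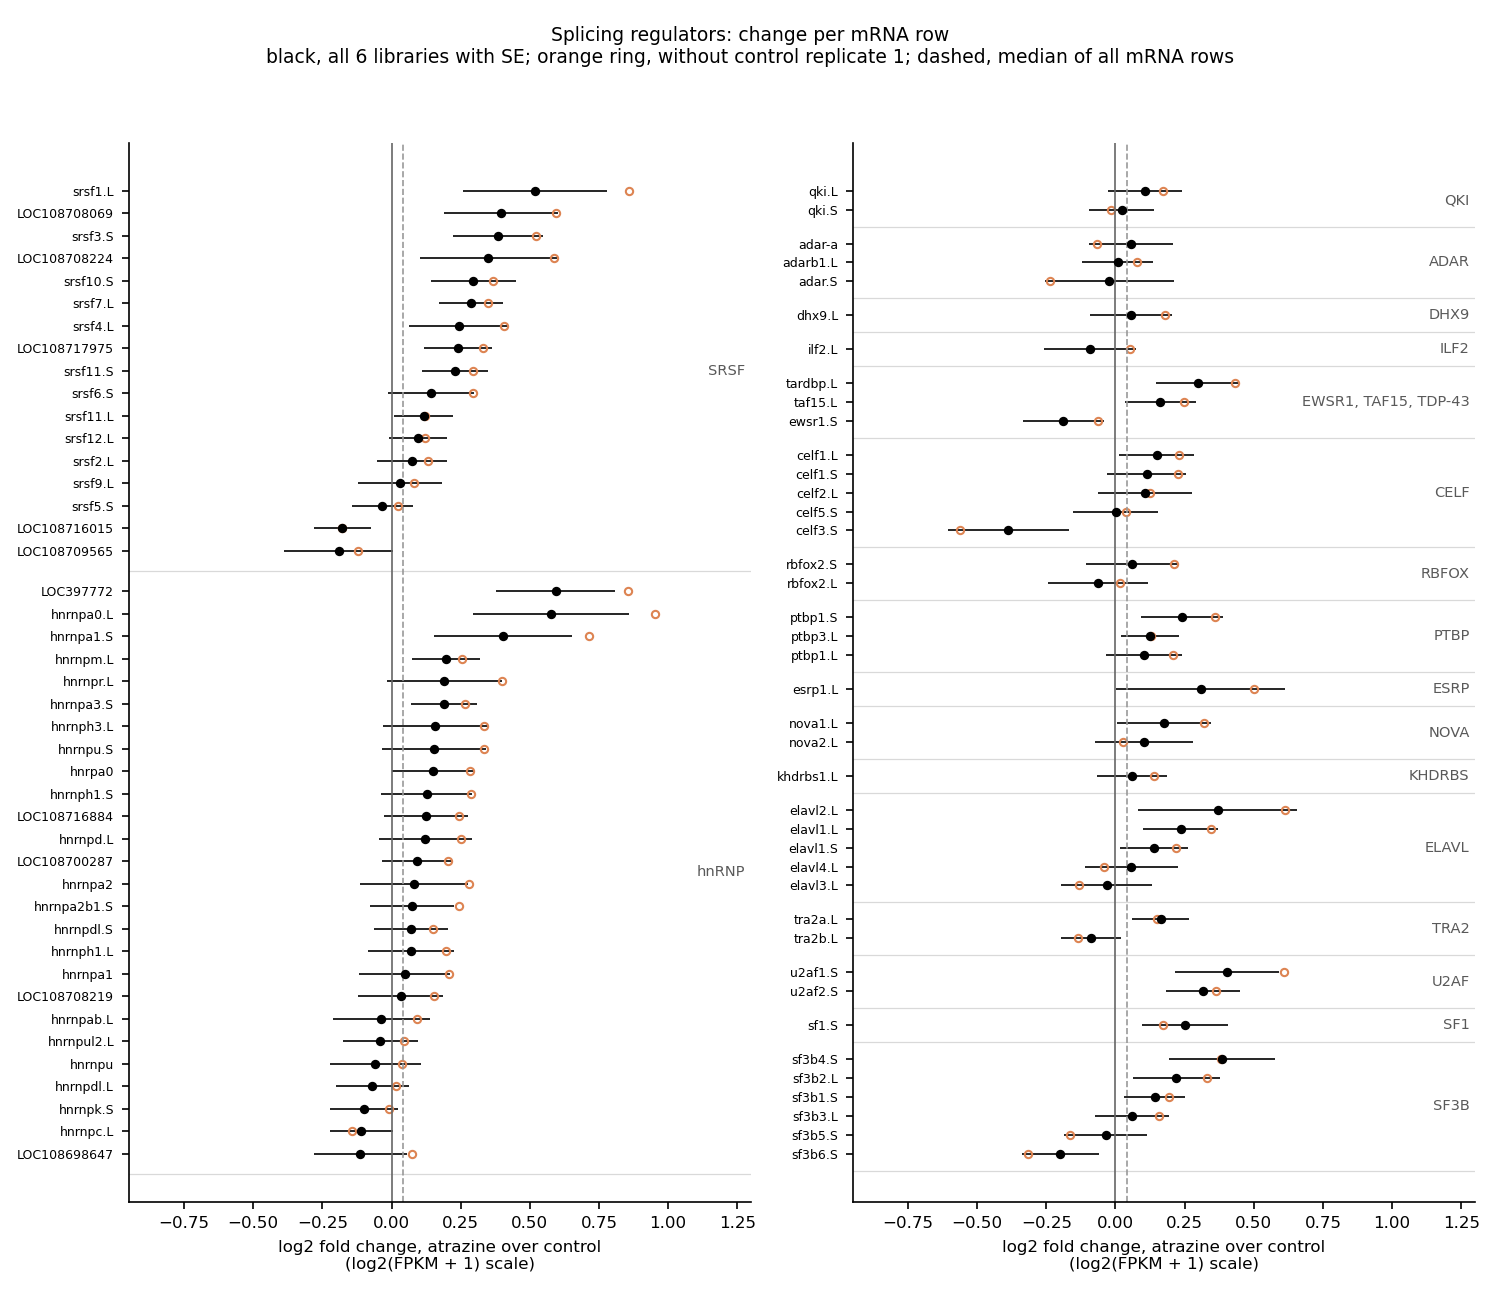
log2 fold change, atrazine over control, on the log2(FPKM + 1) scale for 83 of the 86 splicing regulators tested, grouped by family. Black points with SE bars use all 6 libraries, orange rings leave out control replicate 1, and the dashed line is the median of all mRNA rows at 0.040; 64 of 83 black points lie above 0.

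The splicing regulators were abundant transcripts of the testis. The median level of the 86 tested members was 31.0 FPKM against 8.85 FPKM for all rows tested. Of these members 87.2% averaged at least 10 FPKM, against 46.4% of all rows. This level was not particular to them. The 182 tested rows of 5 lists of other splicing genes, described below, had a median of 31.1 FPKM, and 90.7% averaged at least 10 FPKM. The highest was ilf2.L with a mean of 235 FPKM over all 6 libraries, followed by srsf5.S with 196 FPKM and hnrnpd.L with 160 FPKM. The lowest of all members was celf4.L, which the filter left out, with a mean of 0.075 FPKM.

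Regulators with a known part in ring formation come first. QKI is a STAR-family protein that binds introns beside circularised exons. The copy qki.S had 30.8, 34.7 and 28.9 FPKM in the atrazine libraries and 29.2, 32.1 and 31.4 FPKM in the control libraries. For qki.L the levels were 13.1, 15.6 and 13.4 FPKM in atrazine and 14.2, 13.1 and 11.5 FPKM in control. The groups overlapped in both copies, with log2 fold changes of 0.023 ± 0.12 (SE) for qki.S and 0.11 ± 0.13 (SE) for qki.L. Without control replicate 1 the value for qki.L was 0.17. The sign for qki.S turned to -0.018 in that fit and to -0.028 under median-of-ratios scaling.

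Among the ADAR genes, adar-a on chromosome 8L had 17.7, 20.7 and 17.3 FPKM in the atrazine libraries and 14.9, 18.0 and 21.0 FPKM in the control libraries. The copy adar.S on chromosome 8S had 13.4, 18.7 and 22.6 FPKM in atrazine and 13.2, 22.6 and 19.9 FPKM in control. Both genes were transcribed at almost the same level, 18.3 and 18.4 FPKM on average over all 6 libraries, and neither separated the groups. Their log2 fold changes were 0.056 ± 0.15 (SE) and -0.023 ± 0.23 (SE), and without control replicate 1 they were -0.067 and -0.24. The related editing enzyme adarb1.L had a log2 fold change of 0.0077 ± 0.13 (SE), and 0.079 without control replicate 1. Its sign turned to -0.040 under median-of-ratios scaling.

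The helicase gene dhx9.L showed 28.9, 30.2 and 27.6 FPKM in atrazine testes and 33.2, 22.7 and 28.4 FPKM in control testes. Atrazine values fell inside the control range, and the log2 fold change was 0.055 ± 0.15 (SE), and 0.18 without control replicate 1. The product of ilf2 belongs to a complex that binds paired RNA. The row ilf2.L had 242, 242 and 195 FPKM in atrazine and 295, 197 and 239 FPKM in control. The groups overlapped, and the log2 fold change was -0.093 ± 0.17 (SE), which turned to 0.053 without control replicate 1.

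HNRNPL controls rings in human prostate cells. Both hnRNP L-like rows, LOC108698647 and LOC108700287, are named hnrnpl.L and hnrnpl.S in the v10.1 annotation, and their log2 fold changes were -0.11 ± 0.17 and 0.093 ± 0.13 (SE). Without control replicate 1 that of LOC108698647 turned to 0.073, and that of LOC108700287 was 0.21. SRSF1 is the founding SR protein. The row srsf1.L had 24.0, 22.6 and 23.8 FPKM in atrazine and 26.3, 11.4 and 13.7 FPKM in control. Control replicate 1 was the highest library of all and the other controls were the lowest. The log2 fold change was 0.52 ± 0.26 (SE), and 0.86 without control replicate 1. The row named srsf1.S only in v10.1 lies outside the rule and is given in the last paragraph.

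**Figure D3:**
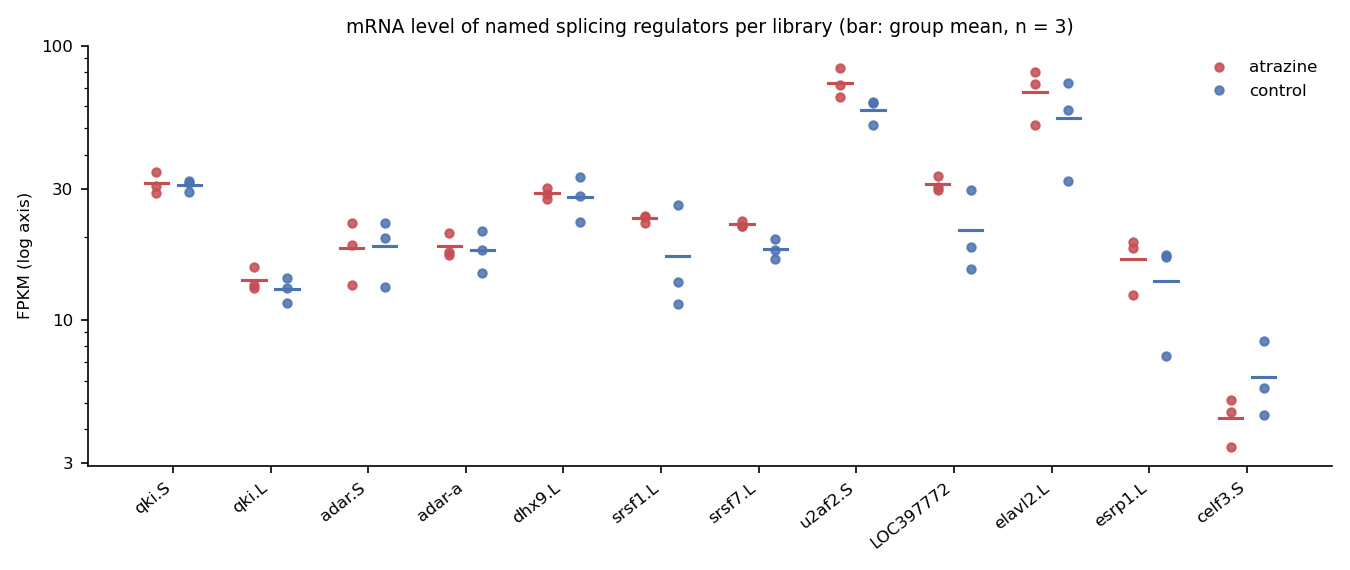
mRNA level in FPKM (log axis) of 12 splicing regulators in each library, atrazine (red) left of control (blue), with bars at the group means (n = 3). For srsf1.L 1 control library lies above all atrazine libraries and the other controls lie below them, while qki.S and adar.S overlap throughout.

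The hnRNP proteins coat nascent transcripts and often block exons. Of 27 hnRNP rows 26 were tested, 19 with a fitted value above 0 and 7 below, with a median log2 fold change of 0.087. Their summed level was 1820, 1686 and 1618 FPKM in the atrazine libraries and 1946, 1355 and 1615 FPKM in the control libraries. The atrazine sums lay inside the control range. Without control replicate 1 the fitted value was above 0 for 24 of the 26 rows, with a median of 0.24.

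The member with the smallest p was LOC397772, described as an hnRNP A3 homolog and named hnrnpa3.L in v10.1. It had 30.6, 29.9 and 33.5 FPKM in the atrazine libraries and 29.8, 15.4 and 18.4 FPKM in the control libraries. The groups were separated only narrowly, since control replicate 1 came within 0.1 FPKM of the lowest atrazine library. The log2 fold change was 0.59 ± 0.22 (SE), with a p of 0.0240 and an adjusted p of 0.693 (limma). In hnrnpa3.S the groups overlapped, at 0.19 ± 0.12 (SE). A second row with a large difference was hnrnpa0.L. This gene had 37.5, 40.0 and 41.9 FPKM in atrazine and 45.0, 18.6 and 21.7 FPKM in control, a log2 fold change of 0.58 ± 0.28 (SE). Control replicate 1 was the highest library, and without it the value was 0.95, with an adjusted p of 0.0941 (limma). Another hnRNP A0 row, hnrpa0, overlapped, at 0.15 ± 0.15 (SE), or 0.28 without control replicate 1. The most abundant hnRNP row was hnrnpd.L (AUF1), which binds AU-rich elements and controls mRNA decay. It had 182, 155 and 159 FPKM in atrazine and 181, 117 and 164 FPKM in control, and the groups overlapped.

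SR proteins bind exonic enhancers and recruit the splicing machinery. All 17 SRSF rows were tested, and 14 had a fitted value above 0 and 3 below, with a median of 0.23. Groups did not overlap in 5 rows with the higher level in atrazine and in 1 row with the lower level, where 6.63% and 4.66% of all rows did not. Without control replicate 1 the count above 0 was 15 and the median was 0.30. The SR protein gene srsf7.L had 22.0, 22.9 and 22.0 FPKM in the atrazine libraries and 19.8, 16.6 and 18.0 FPKM in the control libraries. Every atrazine library exceeded each control library, and the log2 fold change was 0.29 ± 0.12 (SE) with an adjusted p of 0.693 (limma). The same arrangement held for srsf10.S, with 20.4, 21.3 and 18.3 FPKM in atrazine against 17.8, 12.9 and 18.1 FPKM in control, and for the SRSF12-like row LOC108717975, with 24.7, 22.9 and 23.8 FPKM in atrazine against 22.7, 18.8 and 18.6 FPKM in control. SRSF10 is a splicing repressor once it is dephosphorylated. The log2 fold changes of these rows were 0.30 ± 0.15 and 0.24 ± 0.12 (SE). The small SR protein gene srsf3.S had 36.5, 38.5 and 30.4 FPKM in atrazine and 32.2, 21.9 and 26.4 FPKM in control. Control replicate 1 lay above the lowest atrazine library, and the log2 fold change was 0.39 ± 0.16 (SE).

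The SRSF9-like row LOC108716015 was the member with the lower level in atrazine and no overlap. It had 34.2, 33.3 and 33.2 FPKM in atrazine and 38.1, 36.9 and 39.4 FPKM in control, a log2 fold change of -0.18 ± 0.10 (SE). A second SRSF9 row, srsf9.L on chromosome 1S, overlapped, at 0.031 ± 0.15 (SE), or 0.079 without control replicate 1. The most abundant SR row, srsf5.S, had 192, 202 and 185 FPKM in atrazine and 214, 197 and 183 FPKM in control. It showed no separation, at -0.033 ± 0.11 (SE), and 0.025 without control replicate 1. The TRA2 proteins are SR-related activators of exons, and TRA2B acts on testis exons in the mouse. For tra2a.L the levels were 50.2, 46.2 and 46.4 FPKM in atrazine and 41.5, 41.7 and 44.0 FPKM in control, without overlap. For tra2b.L they were 63.6, 56.5 and 57.9 FPKM in atrazine and 59.0, 66.2 and 64.1 FPKM in control, with overlap and the opposite sign. The log2 fold changes were 0.16 ± 0.10 and -0.088 ± 0.11 (SE), the second -0.14 without control replicate 1.

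Several families are best known from particular tissues. CELF proteins bind GU-rich RNA, and the broadly expressed celf1.L had 32.4, 41.3 and 33.1 FPKM in atrazine and 35.7, 30.3 and 29.8 FPKM in control. The neural family member celf3.S was far lower, with 4.61, 3.45 and 5.12 FPKM in atrazine and 4.50, 8.35 and 5.66 FPKM in control. It had the most negative fold change of all members, -0.39 ± 0.22 (SE), and the groups overlapped. ELAVL proteins stabilise mRNAs with AU-rich elements, and elavl2.L, a neural and germ cell member, had 72.3, 80.0 and 51.4 FPKM in atrazine and 72.7, 32.2 and 58.1 FPKM in control. Its log2 fold change was 0.37 ± 0.29 (SE), or 0.61 without control replicate 1, and that of the ubiquitous elavl1.L was 0.24 ± 0.14 (SE). The neural copies elavl3.L and elavl4.L and the neural regulator nova2.L averaged under 2 FPKM, and nova1.L had 4.96, 5.94 and 5.50 FPKM in atrazine and 5.97, 3.79 and 4.59 FPKM in control. The summed level of the neuron marker list was 28.8 to 34.6 FPKM in atrazine libraries and 22.6 to 29.6 FPKM in control libraries, with 4 of 9 rows at a mean of 1 FPKM or more and none at 0 throughout. The part of such cells in these values was not tested.

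ESRP1 directs epithelial splicing patterns. The row esrp1.L had 18.3, 19.3 and 12.4 FPKM in the atrazine libraries and 17.3, 7.40 and 16.9 FPKM in the control libraries, with a log2 fold change of 0.31 ± 0.31 (SE). This was 0.50 without control replicate 1. The epithelial marker list, 8 rows with 5 at a mean of 1 FPKM or more and none at 0 throughout, summed to 144, 152 and 120 FPKM in atrazine and 171, 133 and 144 FPKM in control. Most of this sum was krt8.S, with 85.4, 99.3 and 75.2 FPKM in atrazine and 102, 98.2 and 89.7 FPKM in control. The sum was lowest in atrazine replicate 3, as were its rows krt8.S, krt18, krt18.L and cdh1.S. Its rows epcam.L, epcam.S, cldn4.L and krt18.S were lowest in control replicate 2, as esrp1.L was. The part of epithelial cells in the esrp1.L values was not tested. PTBP1 binds pyrimidine tracts and blocks exons, and ptbp1.S had 43.5, 44.8 and 38.5 FPKM in atrazine and 42.1, 29.4 and 36.2 FPKM in control, a log2 fold change of 0.24 ± 0.15 (SE). RBFOX2 promotes or blocks exons depending on which side it binds, and rbfox2.S differed by 0.060 ± 0.17 (SE), and by 0.21 without control replicate 1. KHDRBS1 (Sam68), which is needed for sperm formation in the mouse, was represented by khdrbs1.L at 0.059 ± 0.13 (SE), or 0.14 without control replicate 1. The row tardbp.L, which encodes TDP-43, differed by 0.30 ± 0.15 (SE) with overlap.

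The last group recognises the 3′ end of the intron. SF1 binds the branch point, U2AF1 and U2AF2 bind the 3′ splice site and the tract before it, and SF3B proteins hold the U2 snRNP at the branch point. The row u2af2.S had 65.0, 82.5 and 71.5 FPKM in the atrazine libraries and 62.2, 51.1 and 61.9 FPKM in the control libraries. There was no overlap, and the log2 fold change was 0.32 ± 0.13 (SE), with a p of 0.0443 and an adjusted p of 0.693 (limma). Its partner u2af1.S differed by 0.40 ± 0.19 (SE), and control replicate 1 lay among the atrazine libraries. Without that library the difference was 0.61. For sf1.S the levels were 14.0, 19.5 and 18.9 FPKM in atrazine and 12.8, 14.9 and 15.5 FPKM in control, at 0.25 ± 0.16 (SE). The 6 SF3B rows were mixed, 4 above 0 and 2 below. The small subunit row sf3b6.S had 138, 116 and 137 FPKM in atrazine and 127, 168 and 156 FPKM in control, at -0.20 ± 0.14 (SE), or -0.32 without control replicate 1. The low row sf3b4.S had 3.62, 6.27 and 5.59 FPKM in atrazine and 3.59, 3.26 and 4.07 FPKM in control, at 0.39 ± 0.19 (SE).

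Other genes of the pathway were taken from 5 lists of splicing factors outside the families, with 182 rows tested. None passed the adjusted threshold, 116 had a fitted value above 0 and 66 below, and 8 higher and 1 lower had an unadjusted p under 0.05 (limma). These 4.95% were near the 5.92% of all rows, and the 63.7% above 0 compare with 57.3% of all rows. The core spliceosome list was divided, 45 above and 28 below 0, with a median of 0.052. Its smallest p above 0 belonged to cdc5l, a subunit of the Prp19 complex, with 16.9 ± 3.67 FPKM in atrazine and 12.2 ± 0.138 FPKM in control (n = 3 each, SD). Its smallest p below 0 belonged to snrpc.S, the U1 snRNP protein C, with 51.5 ± 2.84 FPKM in atrazine and 64.1 ± 1.58 FPKM in control. Both rows had groups that did not overlap. Over the 5 lists this held for 13 rows higher and 5 rows lower in atrazine out of 182, against 6.63% and 4.66% of all rows.

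Kinases and coactivators of SR proteins stood at 9 above and 5 below 0, with a median of 0.080. Here srrm2.L, a scaffold of nuclear speckles, had a log2 fold change of 0.32 ± 0.18 (SE), or 0.19 without control replicate 1. That of clk2.L, a kinase of SR proteins, was -0.46 ± 0.24 (SE). Other RNA-binding splicing factors stood at 41 above and 12 below 0, with a median of 0.12. In that list pcbp3.L, a poly(C)-binding protein, had 36.2, 45.7 and 45.4 FPKM in atrazine and 29.7, 31.1 and 31.7 FPKM in control. The U-rich RNA binder tial1.L had 19.0, 20.3 and 20.4 FPKM in atrazine and 22.6, 23.8 and 21.2 FPKM in control. Groups did not overlap in either row. The list named for the exon junction complex, which marks spliced junctions, had the other sign, with 6 above and 14 below 0 and a median of -0.077. It also held genes of mRNA export, such as alyref.L and thoc1.L, and of nonsense-mediated decay. Several of its rows share the name casc3.L, and most of these lay below 0. The sign is therefore that of a mixed list. Its count was 10 above 0 of 20 without control replicate 1. The named rows there were upf1.S, the helicase of nonsense-mediated decay, at 0.34 ± 0.15, and pnn.L, which encodes pinin, at -0.25 ± 0.14 (SE). The list of ring export, turnover and binding had 15 above and 8 below 0. It was led by ythdf1.L, a reader of N6-methyladenosine, at 0.48 ± 0.15, and at the other end stood prkra.L, an activator of the kinase PKR, at -0.15 ± 0.12 (SE).

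For 9 genes a row named with the suffix L and a row named with the suffix S were both members and were tested. Pairs with a copy under another name were not counted. Such pairs include LOC397772 with hnrnpa3.S, adar-a with adar.S and hnrnpu with hnrnpu.S. The counts below therefore cover only pairs that the symbols show. The copy named S was the higher in 6 pairs and the copy named L in 3. In 3 of these 6 pairs, rbfox2, srsf11 and ptbp1, the copy named S lies on an L chromosome in the table and the copy named L on an S chromosome. By chromosome the higher copy was therefore on an L chromosome in 6 pairs, on an S chromosome in 2 and on an unplaced sequence in 1. The most unequal pair was hnrnph1, where the L copy was 2.83-fold above the S copy, with means of 50.0 and 17.7 FPKM over all 6 libraries. In qki the S copy was 2.32-fold above the L copy, and in rbfox2 the copy named S, on chromosome 4L, was 2.25-fold above the copy named L, on chromosome 4S. The copies of hnrnpdl were equal, at 125 FPKM each. The ratio of L to S did not overlap between groups in 4 of the 9 pairs, among them elavl1, ptbp1 and hnrnpdl. The share over all pairs of L and S copies was not computed, so this count has no background to be read against. In elavl1 the log2 ratio was -0.39 ± 0.031 in atrazine and -0.49 ± 0.065 in control, and in hnrnpdl it was -0.066 ± 0.036 in atrazine and 0.075 ± 0.051 in control (n = 3 each, SD). These differences are small, and reads shared between copies could move them.

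The next comparison concerned the rings that these genes host. A member hosted a ring in 81.1% of cases, against 51.4% of all mRNA rows, and among rows that passed the filter on FPKM the shares were 83.7% and 62.4%. Levels of members were also higher, as given above. The 288 rings held 2202 junction reads. Of them 231 were exonic (80.2%), against 77.6% of all rings and 82.4% of all rings with a host gene. In 1 library only 225 were seen (78.1%, against 78.0% of all rings). In all 6 libraries 5 rings were seen (1.74%, against 1.55%). In these features the rings of splicing regulators were close to the whole catalogue. Exonic rings were shorter, with a median of 380 nt against 456 nt in predicted sequence and 1811 bases against 3105.5 bases in genomic span. The smallest count above 0 in the table was 2, so a 0 may stand for a single read. Among the 17 members with no ring were srsf1.L, tardbp.L, esrp1.L, hnrnpa0.L and sf3b5.S, the last at a mean of 117 FPKM. The rows of sf3b5.S (49895892 to 49896553) and hnrnpa0.L (496757 to 498283) cover short stretches. Whether they hold introns, without which no back-splice can form, was not checked.

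Rings of splicing regulators took 0.556%, 0.641% and 0.661% of all junction reads in atrazine replicates 1, 2 and 3, and 0.590%, 0.559% and 0.618% in control replicates 1, 2 and 3. The group means were 0.619 ± 0.0553% in atrazine and 0.589 ± 0.0295% in control (n = 3 each, SD), and the groups overlapped. The underlying reads were 354, 334 and 245 in atrazine and 409, 482 and 378 in control. Junction reads per 1000000 mRNA reads, a measure of the whole ring load, were 4373, 3387 and 5039 in atrazine and 4074, 5122 and 4439 in control, and also overlapped.

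A large part of this share came from adar.S and hnrnpd.L. With both left out it was 0.314 ± 0.00562% in atrazine and 0.316 ± 0.0128% in control (n = 3 each, SD). For adar.S alone the share was 0.180 ± 0.0345% in atrazine and 0.182 ± 0.0251% in control. That of hnrnpd.L was 0.104%, 0.129% and 0.143% in atrazine and 0.0836%, 0.0869% and 0.103% in control. These shares did not overlap between groups, although the lowest atrazine library and the highest control library were almost equal and the ring test below did not separate them. How often the share of a host did not overlap was not counted over all hosts.

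**Figure D4:**
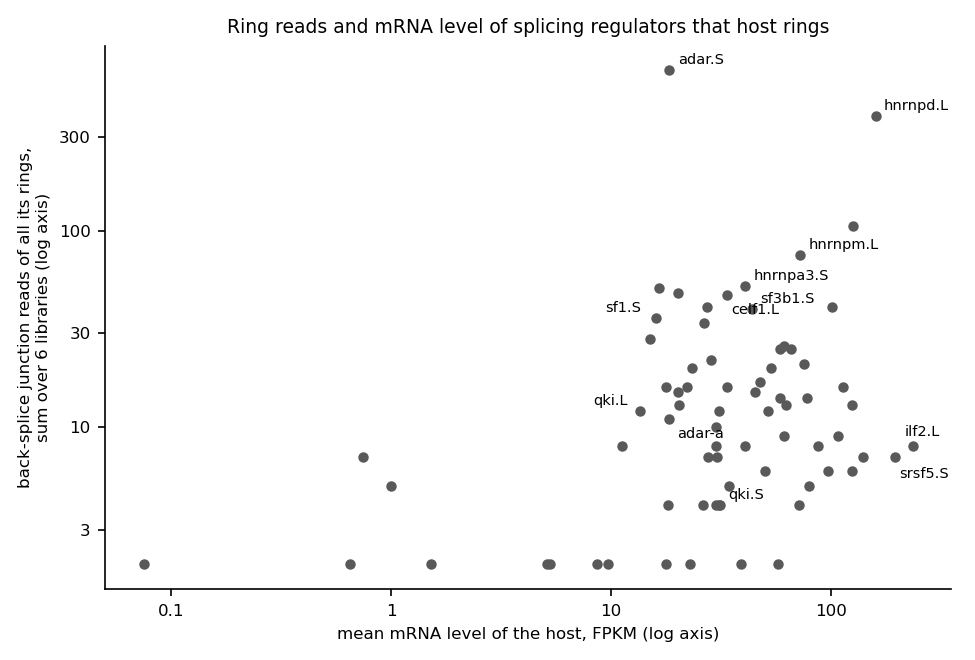
Back-splice junction reads of all rings of a host, summed over 6 libraries, against the mean mRNA level of the host in FPKM (both axes log) for the 73 splicing regulators that host rings. The gene adar.S lies highest with 655 reads, and adar-a at the same mRNA level has 11.

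The gene adar.S had 655 junction reads from 14 rings, which put it at rank 10 of 16743 host genes by reads. The atrazine libraries held 90, 100 and 77 of these reads, against 122, 138 and 128 in the control libraries. Per 1000000 junction reads and per FPKM of its mRNA this was 105, 103 and 92.0 in atrazine and 133, 70.8 and 105 in control, so the groups overlapped once depth and mRNA level were taken into account. Its counterpart adar-a, with nearly the same mRNA level, had 5 rings with 4, 2 and 0 reads in atrazine and 2, 3 and 0 reads in control. The difference between the ADAR genes was thus present in every library of both groups.

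The rings of adar.S arose mostly at 1 place. On chromosome 8S, on the minus strand, the main ring ran from 96837395 to 96837913 and had a predicted exonic length of 270 nt. A longer ring ran from the same downstream end at 96837395 to 96838754 and had 451 nt. Another ring shared that end and reached 96837910, which is 3 bases short of the main ring, with 267 nt. Together these 3 rings held 613 of 655 reads (93.6%). An exon-sized ring from 96838574 to 96838754, the stretch that the longer ring holds beyond the main ring, had 181 nt and 6 reads. In adar-a, on chromosome 8L, a ring from 117097515 to 117099524 also had 451 nt, with 2 reads in atrazine replicate 2 and none elsewhere.

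The main adar.S ring had 60, 54 and 46 reads in the atrazine libraries and 67, 74 and 79 reads in the control libraries. The raw counts did not overlap, but per 1000000 junction reads they were 943, 1036 and 1240 in atrazine and 966, 858 and 1291 in control and overlapped. With library size in the model the log2 fold change was -0.19 ± 0.36 (SE), with an adjusted p of 0.998 (edgeR's quasi-likelihood test). The longer ring had 20, 40 and 17 reads in atrazine and 49, 56 and 37 reads in control, a log2 fold change of -0.60 ± 0.43 (SE) with the same adjusted p of 0.998 (edgeR). Of the reads of both rings the longer took 25.0%, 42.6% and 27.0% in atrazine and 42.2%, 43.1% and 31.9% in control. Atrazine replicate 2 lay with the controls. The group means were 31.5 ± 9.61% in atrazine and 39.1 ± 6.23% in control (n = 3 each, SD), and the Wilson 95% interval of a library was wider than that difference, for example 16.8% to 35.5% in atrazine replicate 1 and 33.6% to 51.3% in control replicate 1.

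In hnrnpd.L 1 ring gave 349 of 382 reads (91.4%). It ran from 79872965 to 79881050 on chromosome 1L with 704 nt, and had 58, 65 and 49 reads in atrazine and 56, 65 and 56 reads in control. The log2 fold change was 0.24 ± 0.36 (SE), with an adjusted p of 0.998 (edgeR). The groups overlapped. By contrast sf3b1.S, which encodes the subunit that contacts the branch point, had the most rings of any member, 15, but only 40 reads. By number of rings it ranked 445 of 16743 host genes, and 13 of its rings were seen in a single library. After it and adar.S came hnrnpm.L and hnrnpa2 with 13 rings each. The gene qki.S had 1 ring with 4 reads, all in atrazine replicate 2, and qki.L had 3 rings with 12 reads.

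**Figure D5:**
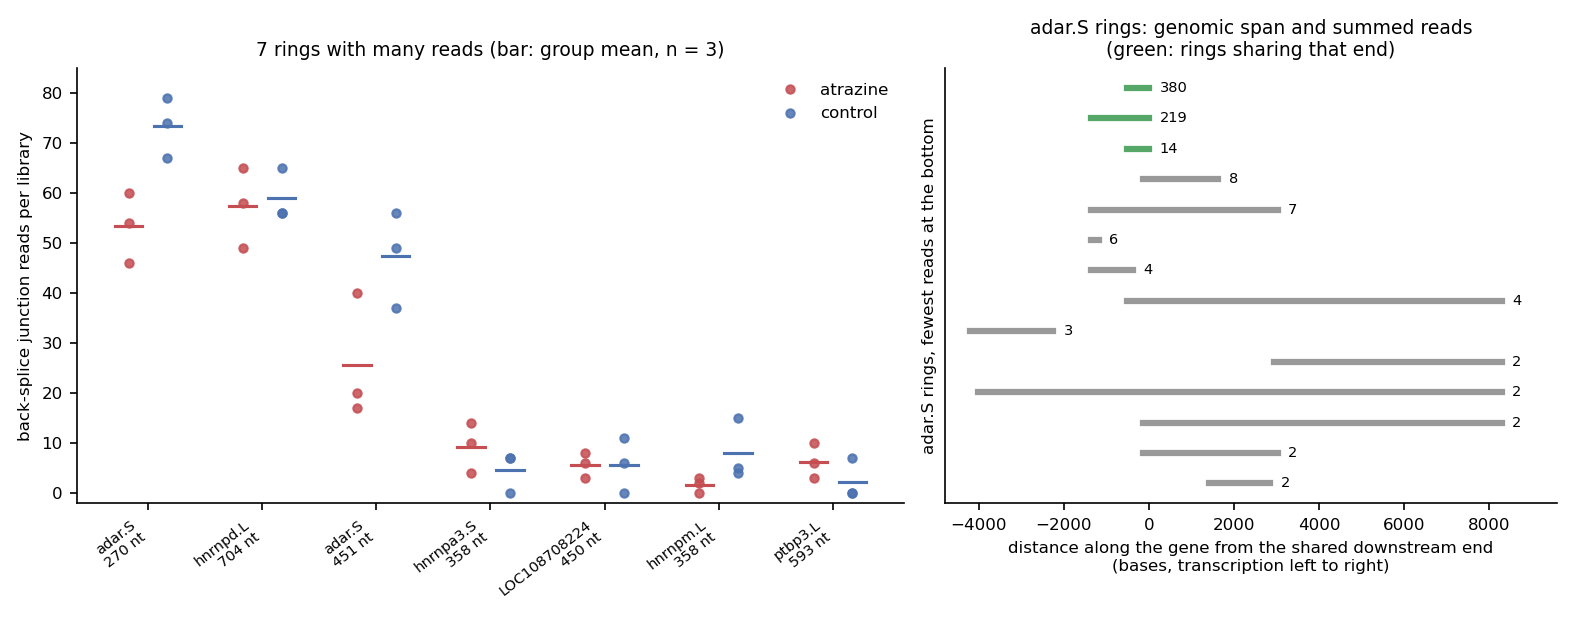
Left, back-splice junction reads per library of 7 of the 8 most abundant rings of splicing regulators, named by host and predicted length, atrazine (red) left of control (blue), bars at group means (n = 3). Right, the 14 adar.S rings by distance from the shared downstream end, with their reads summed over 6 libraries; the 3 green rings that share this end hold 613 of 655 reads.

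Rings that reached 2 reads in 3 or more libraries were tested with edgeR on the junction counts. Of the 288 rings 27 passed that filter, 9 with a fitted value above 0 and 18 below, while 41.1% of all 6592 tested rings lay above 0. No ring of a splicing regulator passed an adjusted p of 0.05, as 0% of all rings did, and the smallest adjusted p was 0.640 (edgeR). An unadjusted p under 0.05 was reached by 4 of 27, all lower in atrazine, against 6.19% of all rings, 1.23% higher and 4.96% lower (edgeR). All 4 had no read in any atrazine library and passed the filter only through the control libraries, so they had to differ. Of the other 23 rings none had an unadjusted p under 0.05 (edgeR). With DESeq2, 1 of the 27 had an unadjusted p under 0.05, against 1.81% of all rings, and none an adjusted one. In raw counts, which ignore that most control libraries held more junction reads, groups did not overlap for 7 rings, all lower in atrazine, against 8.66% of all rings in the lower and 1.49% in the higher direction. These 7 include the same 4 rings. Per 1000000 junction reads the groups did not overlap for 5 rings lower in atrazine, these 4 and 1 other, and for 1 ring higher, against 6.89% and 4.17% of all rings. Without control replicate 1, 21 rings were tested, 9 of them above 0 (42.9%), against 44.8% of all rings. None had an unadjusted p under 0.05 in that fit, against 1.48% of all rings (edgeR). The filter was applied again there, and a ring read only in control libraries could no longer reach 3 libraries. The 4 rings above were therefore not tested in that fit, and its shares cannot be set against those from all 6 libraries.

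The rings with the smallest p illustrate how few reads were involved. A ring of ptbp3.L had no read in any atrazine library and 3, 9 and 4 reads in the control libraries. A ring of srsf5.S on chromosome 8S, from 3829594 to 3830014, likewise had none in atrazine and 2, 3 and 2 reads in control. A ring of hnrnpu on chromosome 5L, from 43721272 to 43728946, had none in atrazine and 2, 2 and 3 reads in control. The adjusted p was 0.640 for each (edgeR). A second ring of ptbp3.L, which shares its end with the first, had 10, 3 and 6 reads in atrazine and 0, 7 and 0 reads in control. The 2 rings were picked for the smallest p in opposite directions, and the first passed the filter only through the control libraries. Their opposite signs therefore say nothing about the gene, and neither ring passed the adjusted threshold. In the other direction stood a ring of hnrnpa3.S with 14, 10 and 4 reads in atrazine and 7, 7 and 0 reads in control, and a ring of ptbp1.L with 2, 6 and 0 reads in atrazine and 0, 2 and 0 reads in control. A ring of hnrnpm.L had 3, 2 and 0 reads in atrazine and 5, 15 and 4 reads in control, and a ring of the SRSF4-like row LOC108708224 had 6, 8 and 3 reads in atrazine and 11, 0 and 6 reads in control. All had an adjusted p of 0.998 (edgeR).

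Among lncRNAs, 2 of the 4 transcripts tied to a member passed the filter, and neither passed the adjusted threshold, as 0% of the 1432 lncRNAs tested did (limma). A transcript inside an intron of srsf11.S, on the same strand, had 7.79, 7.48 and 7.07 FPKM in atrazine and 4.63, 5.71 and 7.59 FPKM in control, with a log2 fold change of 0.30 ± 0.22 (SE) and an adjusted p of 0.851 (limma). A transcript that starts opposite to hnrnpk.S had 2.18, 2.06 and 1.12 FPKM in atrazine and 1.46, 1.58 and 1.72 FPKM in control, with an adjusted p of 0.962 (limma). The groups overlapped in both, while they did not in 12.6% of all lncRNAs tested. The intronic antisense transcripts of ptbp1.S and rbfox2.L were too low to be tested.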

How the data were processed

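Testis RNA from 3 atrazine and 3 control libraries was analysed from tables that the authors deposited. Per the file headers these hold FPKM per mRNA gene and lncRNA transcript, a normalized signal that the authors headed as a count, and raw counts of back-splice junction reads per ring. The authors also deposited log2 normalized ring values, which were not used for any test. The signal served only to estimate depth, since at least 99.8% of its low values were whole multiples of 1 step per library at a tolerance of 0.02. CASAVA 1.8, Bowtie2 and HISAT2 are named per the submitters' processing notes, with no role. Which quantifier, ring caller, annotation and build were used, and whether counting respected strand, was not given in the sources used here, so reads of copies and of overlapping genes may be shared. Coordinates are as the files give them, counted from 1, and chromosome names follow the mRNA table. Names marked v10.1 come from the RefSeq annotation of that assembly, which gave no coordinate.

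For FPKM values limma 3.58.1 (R 4.3.3, empirical Bayes with a trend) was run on log2(FPKM + 1), keeping rows that reached 0.5 FPKM in 3 or more libraries. The lncRNA table was reduced from 4652 rows to 3559 transcripts. For junction counts edgeR 4.0.16 (TMM, quasi-likelihood) was run on rings that reached 2 reads in 3 or more libraries. The SE of a ring was worked back from that test, as the size of its log2 fold change divided by the square root of the F value. All p-values are two-sided and were adjusted by Benjamini-Hochberg over each whole table, with a threshold of 0.05, and the scripts were tested on simulated data. DESeq2 1.42.0, other scalings, filters and a pseudocount of 0.1 FPKM, a replicate block and leaving out each library were alternatives. Library values of 3 against 3 allow no exact permutation p below 0.1, so shares carry no p. Binomial intervals cover counting error only, since PCR copies cannot be told from separate molecules.

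The members, lists and comparisons were chosen with earlier results of these data known. The rule for named genes took the most abundant row and the row of smallest p in each family, the regulators with a known part in ring formation, the 5 largest differences without overlap, the 8 rings with the most reads, the 3 of smallest p in each direction, the 5 hosts with the most rings, and 1 row per list and direction. Some rows that this rule takes are not reported here. Other genes named were chosen after their values were seen.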

Additional observations from a re-analysis of the deposited data

How the results depend on the processing

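No alternative called a splicing regulator or a ring of one at an adjusted p under 0.05. Over the whole mRNA table limma called 0 rows with all libraries and 0 to 5 when 1 library was left out, 5 of them without control replicate 1 and 1 without atrazine replicate 3. Over the whole ring table edgeR called 0 rings with all libraries and 0 to 2 when 1 library was left out, 3 without the filter on low counts, and 1 with the replicate block. The deviations of same-numbered libraries from their group means correlated at 0.025, -0.350 and -0.039 in the mRNA table. Those of differently numbered libraries correlated at -0.361 to 0.415. Deviations within a group sum to 0 and so depend on each other, and these values cannot settle whether the numbers pair the libraries. The block called no member and left 1 member (1.16%) at an unadjusted p under 0.05, against 4.33% of all rows (limma). The count of members above 0 ran between 55 and 72 of 86 when 1 library was left out and was 61 of 86 under median-of-ratios scaling, which moved the median of all rows to -0.0027. Of the named genes, qki.S turned to -0.028 and adarb1.L to -0.040 under that scaling. Over the fits that leave out 1 library, the sign also turned for 12 genes and 1 ring, whose values ran from -0.067 to 0.17 for adar-a, -0.24 to 0.17 for adar.S, -0.044 to 0.079 for adarb1.L, -0.085 to 0.18 for dhx9.L, -0.060 to 0.50 for esrp1.L, -0.063 to 0.25 for hnrnpd.L, -0.24 to 0.053 for ilf2.L, -0.056 to 0.14 for khdrbs1.L, -0.25 to 0.073 for LOC108698647, -0.048 to 0.080 for qki.S, -0.080 to 0.21 for rbfox2.S and -0.087 to 0.025 for srsf5.S, and from -0.39 to 1.02 for the ring of LOC108708224. The cause was not tested. With 5 reads required in 3 libraries 8 member rings were tested and 5 lay above 0 (62.5%), against 43.0% of all rings. Of the 288 rings 225 were seen in 1 library, which leaves few reads for a test.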

Other observations

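Muscleblind proteins bind introns of their own transcripts and favour a ring from them in flies and mammals. The rule above did not reach them, because the mRNA table names them only by a LOC number, and 6 rows are described as muscleblind-like. These rows were looked up after the other values were seen. Both muscleblind-like 1 rows were expressed, LOC108717051 at 13.5, 13.7 and 14.6 FPKM in the atrazine libraries and 15.5, 14.2 and 13.7 FPKM in the control libraries, and LOC108718127 at 12.6, 13.2 and 12.8 FPKM in atrazine and 13.1, 12.5 and 12.6 FPKM in control. The groups overlapped in both. The log2 fold changes of the 6 rows ran from -0.10 to 0.11, and the smallest adjusted p was 0.806 (limma).

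A further 30 rows with a LOC number carry the name of a splicing regulator in the v10.1 annotation. Of these 28 were tested and none was called, as 0% of all rows were (limma). The fitted value was above 0 for 20 (71.4%) with a median of 0.12, against 57.3% and 0.040 for all rows. Without control replicate 1 the count was 23 (82.1%) and the median 0.26, against 58.1% and 0.057 for all rows. Control replicate 1 was the highest control in 24 of the 28 rows (85.7%), against 43.5% of all rows. An unadjusted p under 0.05 was reached by 1 row (3.57%, against 5.92% of all rows), LOC108708917, named srsf1.S (limma). It had 18.4, 18.6 and 18.2 FPKM in atrazine and 16.7, 10.9 and 13.7 FPKM in control, with an adjusted p of 0.693 (limma). Groups did not overlap in 4 of the 28 rows, all higher in atrazine, against 6.63% of all rows in that direction.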
